A study of Mus musculus with 32 samples.

Results

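The 10 genes of the desmosome were followed through a single ultraviolet exposure of mouse epidermis. They were matched by gene symbol, and all 10 were found among the 55401 gene identifiers counted and were among the 15546 genes tested. The members were the desmogleins Dsg1a, Dsg1b, Dsg2 and Dsg3, the desmocollins Dsc1, Dsc2 and Dsc3, and the plaque genes Dsp, Pkp1 and Pkp3. RNA was sequenced from the dorsal epidermis of 32 mice, 1 library per mouse, in 8 groups of 4 defined by genotype, treatment and sex. All mice were of the hairless SKH-1/SV129/BL6/J background and 10 to 14 weeks old. UV-exposed mice received a single dose of 120 mJ/cm2 on the back and were sampled 24 h later, and controls were handled without exposure. The sample titles mark all controls as T0 and all UV-exposed mice as T24, so UV cannot be told apart from this time label. Wild-type mice (WT, +/+) were compared with littermates labelled as lacking Ppard (KO, -/-), which encodes the nuclear receptor PPARβ. In the UV and genotype comparisons each arm therefore held 4 males and 4 females.

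Desmosomes are the junctions that rivet keratinocytes to each other and anchor their keratin filaments. Desmogleins and desmocollins are cadherins that reach across the gap between neighbouring cells, plakophilins and plakoglobin bind their tails, and desmoplakin ties this plaque to keratin. In stratified epidermis the cadherins are exchanged as cells move upward: Dsg3, Dsc3 and the more widely expressed Dsg2 and Dsc2 belong to the lower layers, Dsg1 and Dsc1 to the upper ones. The mouse carries several copies of Dsg1, of which Dsg1a and Dsg1b are members here.

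Of the 10 members, 1 was matched in the RefSeq promoter table (GRCm38.p6), Dsp, so only its promoter could be given. Its 250 bases upstream of the annotated start lie at chr13:38151044-38151293 on the plus strand. Dsp had the highest level per kb of exon of all members in controls and fell after UV. A link between the promoter and these levels was not tested. Capitals mark matches to the GC box GGGCGG on either strand.
Dsp: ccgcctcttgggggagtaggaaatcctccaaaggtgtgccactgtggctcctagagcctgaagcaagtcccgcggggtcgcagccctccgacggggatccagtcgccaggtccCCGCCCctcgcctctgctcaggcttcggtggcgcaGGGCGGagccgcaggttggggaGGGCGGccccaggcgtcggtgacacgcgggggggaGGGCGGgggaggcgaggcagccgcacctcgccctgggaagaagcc
The window held 4 GC boxes, and 32.7% of all 32817 promoter windows of this length held at least 1. The share of windows with 4 or more was not counted. No match was found on either strand for the AP-1 motif TGANTCA (6.75% of windows), the Grainyhead motif AACCGGTT (0.116%), the Snail-type E-box CAGGTG (17.2%) or the CAAT box CCAAT (33.8%).

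The cadherin genes all lie in 1 cluster on chromosome 18, chr18:19960930-20604521 of GRCm38, which spans 644 kb and holds 9 genes in the GENCODE annotation. Along the chromosome their order is Dsc3, Dsc2 and Dsc1 on the minus strand, followed by Dsg1c, Dsg1a, Dsg1b, Dsg4, Dsg3 and Dsg2 on the plus strand. Of the members, Dsc3 (ENSMUSG00000059898) at chr18:19960930-20002351, Dsc2 (ENSMUSG00000024331) at chr18:20030633-20059554, Dsc1 (ENSMUSG00000044322) at chr18:20084184-20114871, Dsg1a (ENSMUSG00000069441) at chr18:20310811-20343350, Dsg1b (ENSMUSG00000061928) at chr18:20376729-20410196, Dsg3 (ENSMUSG00000056632) at chr18:20510274-20547459 and Dsg2 (ENSMUSG00000044393) at chr18:20558074-20604521 make up this cluster with Dsg1c and Dsg4. Dsp (ENSMUSG00000054889) lies at chr13:38151294-38198577 on the plus strand, Pkp1 (ENSMUSG00000026413) at chr1:135871395-135919207 on the minus strand and Pkp3 (ENSMUSG00000054065) at chr7:141078218-141090510 on the plus strand. All 10 are protein-coding genes, and reads were summed over the exons of each.

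The libraries held 22919428 to 40653581 reads assigned to genes, with a median of 27600228.5. The targeted gene was read in every library. Ppard lay between 87.3 and 105 cpm (median 94.0) in WT controls and between 70.3 and 88.9 cpm (median 77.5) in controls labelled KO, and the ranges overlapped. After UV it lay between 252 and 326 cpm (median 279) in WT and between 175 and 239 cpm (median 219) in KO mice, without overlap (log2 fold change -0.42 ± 0.07 (SE), edgeR adjusted P value 0.00114). A count over the whole gene does not test a deletion of part of it, and the deleted part is not given in the sources used here, so KO stands for the label throughout. Levels below are read counts relative to library size after TMM normalization (cpm), and fold changes come from 1 model of all 32 mice with the sexes averaged. A gene was called when its P value, adjusted by the Benjamini-Hochberg method over all genes tested, was under 0.05. Each library came from 1 mouse, so the P values measure the spread between mice.

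Neither the lower-layer nor the upper-layer cadherins moved as a block after UV. In WT mice 5 of the 10 members rose (Dsg3, Dsc2, Dsg1b, Dsc1 and Pkp3) and 4 fell (Dsg1a, Dsg2, Dsp and Dsc3). In KO mice the same 5 rose, and 5 fell (Dsg1a, Dsg2, Dsp, Dsc3 and Pkp1). These counts stand against a background in which most of the transcriptome was called: 34.5% of all genes tested rose and 36.5% fell in WT mice, 71% together, and 37.3% rose and 33.5% fell in KO mice, 70.8% together. With so many genes called, the number of members called says little of the members themselves. The median log2 fold change of the members was 0.30 in WT and 0.05 in KO mice, beside -0.01 and 0.09 over all genes. What set the members apart from each other was the size and the direction of their changes, which ran from a 6.44-fold rise of Dsg3 to a 2.41-fold fall of Dsg1a in WT mice.

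**Figure D1:**
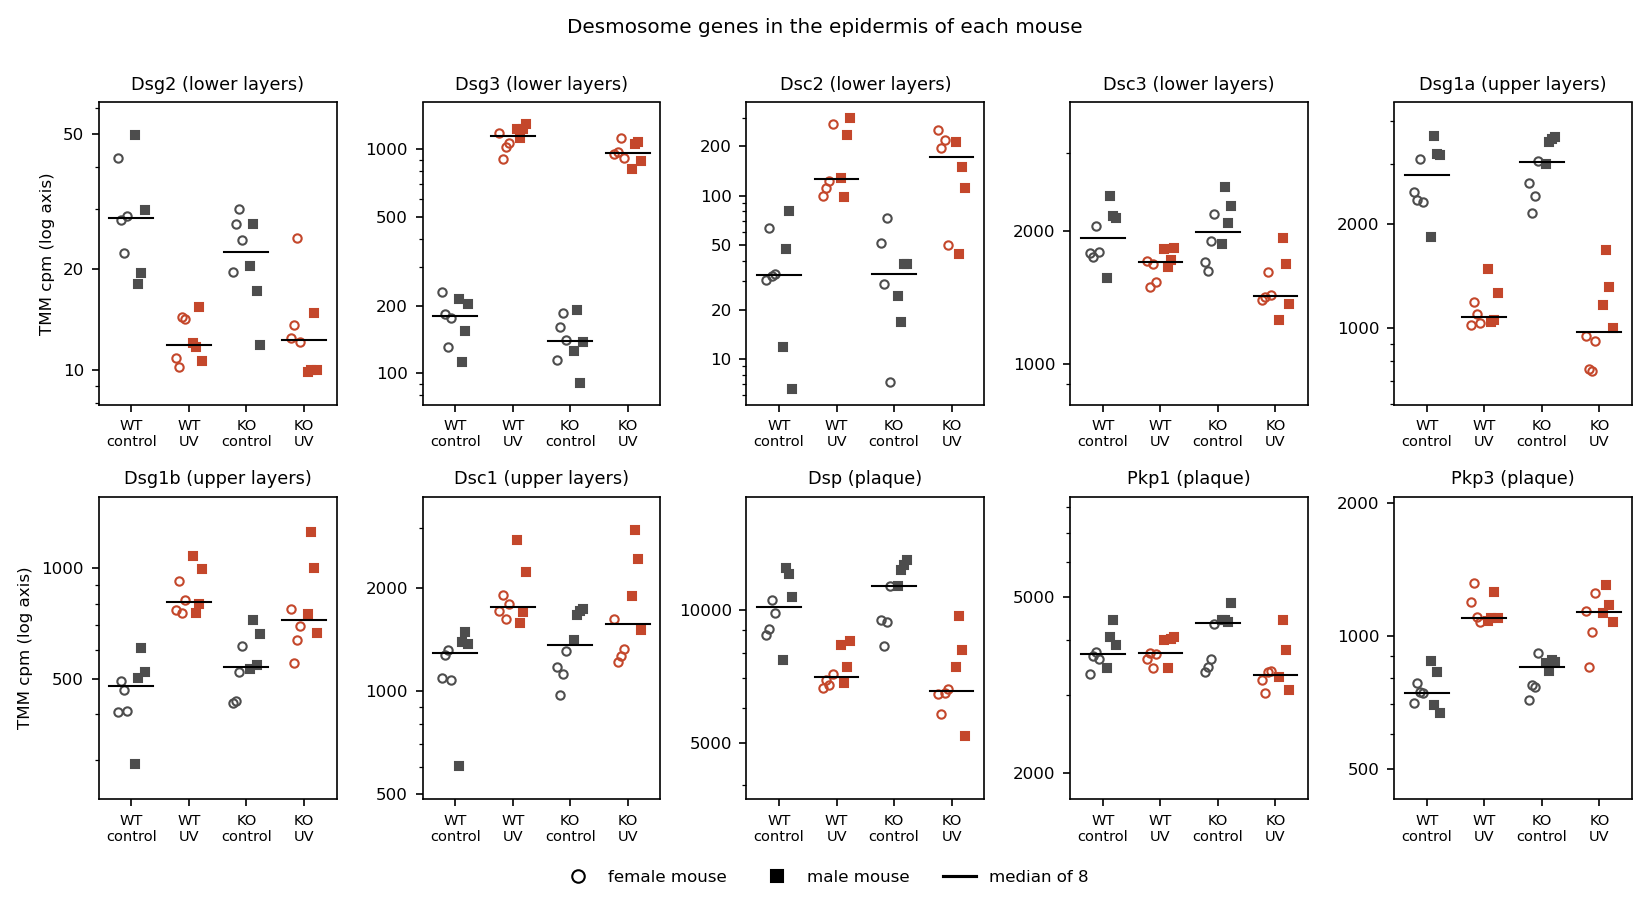
Level of each desmosome gene in each of the 32 mice, in TMM-scaled cpm on a log axis, for WT and KO controls (dark) and UV-exposed mice (red); open circles are females, filled squares males, and the bar is the median of 8. In WT mice Dsg3, Dsc2, Dsg1b, Dsc1 and Pkp3 stand above every control after UV and Dsg1a and Dsg2 below every control.

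Among the lower-layer cadherins, Dsg3 showed the largest change of the 10 members. Dsg3, the desmoglein of basal and parabasal cells, lay between 112 and 230.2 cpm (median 180.5) in the 8 WT controls and between 912 and 1297 cpm (median 1154) in the 8 UV-exposed WT mice. It lay between 90.8 and 193 cpm (median 139.7) in the 8 KO controls and between 819.7 and 1124 cpm (median 963) in the 8 UV-exposed KO mice. In both genotypes every UV-exposed mouse was above every control. Dsg3 rose 6.44-fold in WT mice (log2 fold change 2.69 ± 0.15 (SE), edgeR adjusted P value 3.84e-15) and 6.79-fold in KO mice (log2 fold change 2.76 ± 0.15 (SE), edgeR adjusted P value 2.71e-15). Within each sex of each genotype the rise was between 5.80-fold, in WT females, and 7.15-fold, in WT males.

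Dsc2, a desmocollin found in many epithelia, rose as well but was by far the most variable member. It lay between 6.56 and 80.5 cpm (median 32.6) in the 8 WT controls and between 97.8 and 297 cpm (median 126) in the 8 UV-exposed WT mice, and the arms did not overlap. The 4 WT control males alone spanned 6.56, 11.7, 47.0 and 80.5 cpm. It lay between 7.24 and 72.4 cpm (median 33.3) in the 8 KO controls and between 43.8 and 251 cpm (median 172) in the 8 UV-exposed KO mice, and the UV-exposed female and male at 49.8 and 43.8 cpm fell within the control range. Dsc2 rose 4.48-fold in WT mice (log2 fold change 2.16 ± 0.47 (SE), edgeR adjusted P value 0.000195) and 4.44-fold in KO mice (log2 fold change 2.15 ± 0.47 (SE), edgeR adjusted P value 0.000214). The SD of its log2 cpm within groups was 1.04, beside 0.13 to 0.41 for the other members.

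The other lower-layer cadherins went down. Dsc3, the desmocollin of the basal layer, lay between 1567 and 2397 cpm (median 1923) in the 8 WT controls and between 1493 and 1831 cpm (median 1698) in the 8 UV-exposed WT mice, with overlap. It lay between 1618 and 2511 cpm (median 1989.7) in the 8 KO controls and between 1257 and 1931 cpm (median 1422) in the 8 UV-exposed KO mice, also with overlap. Its fall was small in WT mice (log2 fold change -0.22 ± 0.09 (SE), edgeR adjusted P value 0.0332) and somewhat steeper in KO mice (log2 fold change -0.41 ± 0.09 (SE), edgeR adjusted P value 0.000192), and the difference between these was not called. The WT call was weak. It was lost with RLE size factors (-0.19, edgeR adjusted P value 0.0591), with no low-count filter (-0.21, edgeR adjusted P value 0.0838), in either sex taken alone, and without any 1 of 13 mice (WT controls 54M, 56M, 69M, 61F, 71F and 73F, WT UV-exposed 38M, 57M, 57F, 59F and 77F, KO control 62F and KO UV-exposed 54F), where the log2 fold change lay between -0.17 and -0.21 and the edgeR adjusted P value between 0.0526 and 0.0880.

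Dsg2, the desmoglein of simple epithelia and the least abundant member per kb of exon, lay between 18.05 and 49.7 cpm (median 28.2) in the 8 WT controls and between 10.2 and 15.4 cpm (median 11.9) in the 8 UV-exposed WT mice, without overlap. It lay between 11.9 and 30.0 cpm (median 22.4) in the 8 KO controls and between 9.90 and 24.6 cpm (median 12.3) in the 8 UV-exposed KO mice, and the ranges overlapped. In KO mice the overlap came from control male 67M at 11.9 cpm and UV-exposed female 66F at 24.6 cpm. Dsg2 fell 2.39-fold in WT mice (log2 fold change -1.26 ± 0.20 (SE), edgeR adjusted P value 3.41e-06) and 1.66-fold in KO mice (log2 fold change -0.73 ± 0.20 (SE), edgeR adjusted P value 0.00211). Between 239 and 1363 reads per mouse supported these values, fewer than for most other members. Dsg2 shares 330 exonic bases with the antisense gene Gm16090 and Dsp shares 499 with Gm10129, and the strand setting of the counting is not given in the sources used here.

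The upper-layer cadherins split within their own family. Dsg1a, the main Dsg1 copy in unexposed epidermis, lay between 1841 and 3618 cpm (median 2791) in the 8 WT controls and between 1021 and 1479 cpm (median 1074) in the 8 UV-exposed WT mice. It lay between 2164 and 3586 cpm (median 3029.9) in the 8 KO controls and between 748 and 1679 cpm (median 972) in the 8 UV-exposed KO mice. Every UV-exposed mouse was below every control in both genotypes. Dsg1a fell 2.41-fold in WT mice (log2 fold change -1.27 ± 0.12 (SE), edgeR adjusted P value 3.17e-10) and 2.83-fold in KO mice (log2 fold change -1.50 ± 0.12 (SE), edgeR adjusted P value 1.31e-11).

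Its neighbour Dsg1b rose. Dsg1b lay between 293 and 605 cpm (median 478) in the 8 WT controls and between 753 and 1080.2 cpm (median 809) in the 8 UV-exposed WT mice, without overlap. It lay between 429 and 722 cpm (median 537) in the 8 KO controls and between 550.0 and 1253 cpm (median 722) in the 8 UV-exposed KO mice, with overlap. The rise was 1.87-fold in WT mice (log2 fold change 0.90 ± 0.13 (SE), edgeR adjusted P value 9.72e-07) and 1.41-fold in KO mice (log2 fold change 0.50 ± 0.13 (SE), edgeR adjusted P value 0.00165). Per kb of exon, Dsg1b stood at 0.199 to 0.299 times the level of Dsg1a in WT controls and at 0.985 to 1.14 times after UV. The corresponding ranges in KO mice were 0.219 to 0.309 and 0.919 to 1.23. No UV-exposed mouse reached back into the control range of this ratio.

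The Dsg1 copies share sequence, which bears on how far their counts can be separated. Of all 100-base windows of exonic sequence, the read length used, 24.6% of those of Dsg1a, 32.8% of those of Dsg1b and 13.9% of those of Dsg1c were found in another copy, and 0% for every other member. Reads from such windows could not be assigned to 1 copy and were not counted, so the copies' levels and their ratio are uncertain. Their levels per kb are low estimates beside genes without shared sequence, and summing the copies does not restore these reads. Summed as 1 gene, Dsg1a, Dsg1b and Dsg1c fell 1.60-fold in WT mice (log2 fold change -0.68 ± 0.12 (SE), edgeR adjusted P value 1.50e-05) and 1.92-fold in KO mice (-0.94 ± 0.12 (SE), edgeR adjusted P value 1.05e-07), so the rise of Dsg1b was not carried over to the family total.

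Dsc1, the desmocollin of the upper layers, rose. It lay between 604 and 1485 cpm (median 1293) in the 8 WT controls and between 1579 and 2766 cpm (median 1760.4) in the 8 UV-exposed WT mice. The arms did not overlap. It lay between 974 and 1742 cpm (median 1361) in the 8 KO controls and between 1214 and 2957 cpm (median 1567) in the 8 UV-exposed KO mice, with broad overlap. Dsc1 rose 1.59-fold in WT mice (log2 fold change 0.67 ± 0.15 (SE), edgeR adjusted P value 0.000239) and 1.26-fold in KO mice (log2 fold change 0.34 ± 0.15 (SE), edgeR adjusted P value 0.0441). WT control male 43M, at 604 cpm, stood far below the other WT control males at 1376 to 1485 cpm, and without it the WT log2 fold change was 0.56 with an edgeR adjusted P value of 0.000210. The KO call was weak. It was lost with RLE size factors (0.33, edgeR adjusted P value 0.0507), limma-trend (0.32, limma adjusted P value 0.0671), edgeR's default expression filter (0.30, edgeR adjusted P value 0.0726) and no filter (0.30, edgeR adjusted P value 0.105), and without any 1 of 10 KO mice (controls 34M, 44M, 52M, 44F and 60F, UV-exposed 58M, 59M, 61M, 52F and 74F), where the log2 fold change lay between 0.24 and 0.34 and the edgeR adjusted P value between 0.0530 and 0.139.

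In the plaque, desmoplakin fell and the plakophilins diverged. Dsp, which encodes the linker to keratin filaments, lay between 7709.6 and 12430.0 cpm (median 10178) in the 8 WT controls and between 6658 and 8484 cpm (median 7037) in the 8 UV-exposed WT mice. It lay between 8264 and 13013 cpm (median 11328) in the 8 KO controls and between 5166 and 9694 cpm (median 6556) in the 8 UV-exposed KO mice. The arms overlapped in both genotypes, in WT through control male 43M at 7709.6 cpm and in KO through UV-exposed male 59M at 9694 cpm. Dsp fell 1.38-fold in WT mice (log2 fold change -0.47 ± 0.10 (SE), edgeR adjusted P value 0.000192) and 1.57-fold in KO mice (log2 fold change -0.65 ± 0.10 (SE), edgeR adjusted P value 2.58e-06).

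Pkp3, a plakophilin found throughout the layers, lay between 668 and 876 cpm (median 743) in the 8 WT controls and between 1075 and 1318 cpm (median 1099) in the 8 UV-exposed WT mice, without overlap. It lay between 716 and 914 cpm (median 851) in the 8 KO controls and between 849 and 1306 cpm (median 1132) in the 8 UV-exposed KO mice, with overlap through UV-exposed female 54F at 849 cpm. Pkp3 rose 1.53-fold in WT mice (log2 fold change 0.61 ± 0.07 (SE), edgeR adjusted P value 2.62e-08) and 1.35-fold in KO mice (log2 fold change 0.43 ± 0.07 (SE), edgeR adjusted P value 7.35e-06). Pkp1, the plakophilin richest in the upper layers, lay between 3358 and 4434 cpm (median 3716) in the 8 WT controls and between 3452 and 4064 cpm (median 3737) in the 8 UV-exposed WT mice, nearly the same range. It lay between 3380.2 and 4846 cpm (median 4374) in the 8 KO controls and between 3039 and 4435 cpm (median 3339.8) in the 8 UV-exposed KO mice, with overlap. The log2 fold change of Pkp1 was -0.01 in WT mice (95% interval -0.15 to 0.14, edgeR adjusted P value 0.928), an interval that leaves room for changes of up to about 0.15 in either direction, and Pkp1 fell 1.19-fold in KO mice (log2 fold change -0.25 ± 0.07 (SE), edgeR adjusted P value 0.00261).

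Counted by separation of the arms, 5 members rose and 2 fell without any overlap in WT mice, against 21.3% and 22.1% of all genes tested, 43.4% together. In KO mice 1 member rose (Dsg3) and 1 fell (Dsg1a) without overlap, against 18.6% and 16.5% of all genes, 35.1% together. Some neighbouring genes of the cadherin cluster went in opposite directions, while the neighbours Dsc2 and Dsc1 both rose. In both genotypes Dsg1a fell beside the rising Dsg1b, Dsg3 rose beside the falling Dsg2, and Dsc2 rose beside the falling Dsc3. The remaining genes of the cluster, Dsg1c and Dsg4, stayed at or under 8.08 cpm in every mouse.

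**Figure D2:**
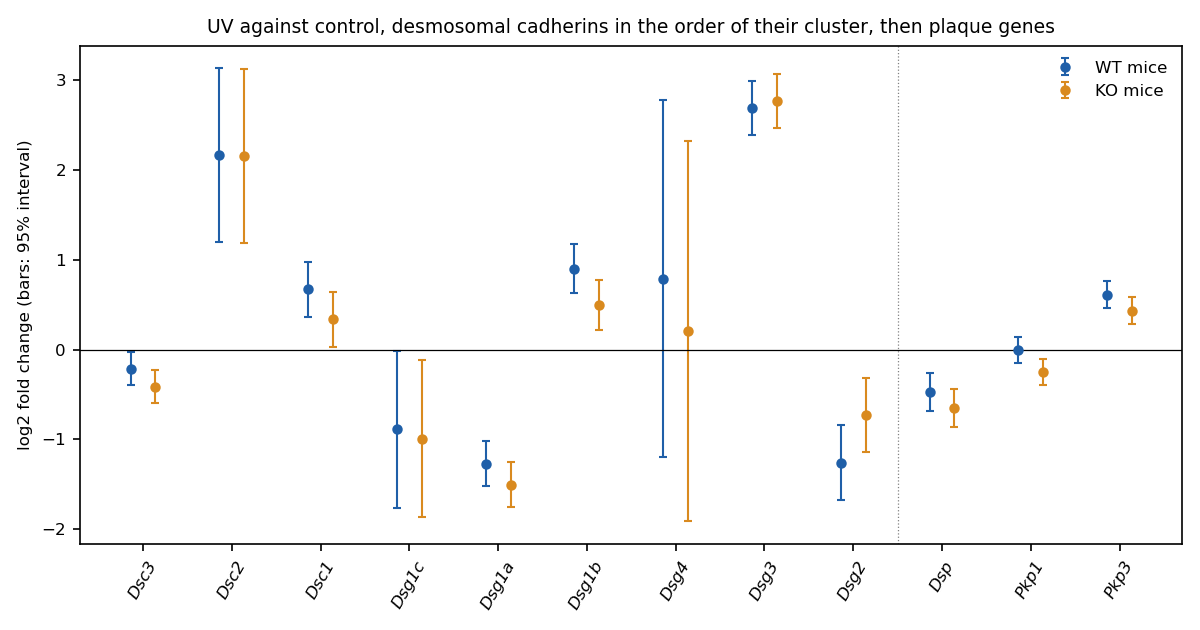
UV-induced log2 fold change in WT (blue) and KO (orange) mice, with 95% intervals, for the 9 cadherin genes in their order along the cluster and, right of the dotted line, the plaque genes. Several neighbours in the cluster differ in direction, from 2.69 for Dsg3 to -1.26 for Dsg2 next to it in WT mice. The intervals of the genotypes overlap for every gene, which is not a test of the difference between them.

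Per kb of exon, used to compare genes of different length, these changes altered the make-up of each family. The full exon length was used, although reads from sequence shared by the Dsg1 copies were not counted. Levels and shares of Dsg1a and Dsg1b are therefore low estimates beside Dsg3 and Dsg2, and no length without shared sequence was tried. Dsg1a held a median of 75.9% of the desmoglein signal in WT controls and 33.9% after UV. Dsg3 went from 4.33% (range 2.05 to 7.05%) to 28.1% (range 22.7 to 31.4%) in WT mice and from 2.81% to 27.1% in KO mice. Dsg1b went from 17.9% to 36.9% in WT mice and from 20.8% to 37.0% in KO mice. The desmogleins of unexposed epidermis were thus mostly Dsg1a, and those of UV-exposed epidermis were spread over Dsg1a, Dsg1b and Dsg3. Dsg2 held at most 1.38% in any mouse. All Dsg1 copies together went from 95.1% to 71.6% in WT mice and from 96.7% to 72.6% in KO mice.

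The desmocollins moved the other way with respect to the layers. Dsc3 held 59.4% of the desmocollin signal in WT controls and 43.1% after UV, while Dsc1 went from 39.8% to 51%. Dsc1 stood at 0.413 to 0.783 times the level of Dsc3 in WT controls and at 1.02 to 1.62 times after UV, without overlap. The ranges in KO mice, 0.635 to 0.879 and 0.840 to 1.64, overlapped. Dsc2 remained the minor desmocollin, at a median of 1.09% in WT controls and 3.34% after UV. Among the desmogleins the comparison of layers ran in the opposite sense, with Dsg1a at 10.6 to 39.7 times the level of Dsg3 in WT controls and 1.04 to 1.60 times after UV. The KO ranges of that ratio were 15.9 to 48.0 and 0.817 to 1.94, and in both genotypes the level of Dsg1a is a low estimate, as above. Pkp3 went from 21.6% to 30.2% of the plakophilin signal in WT mice and from 22.0% to 30.9% in KO mice, with Pkp1 holding most of the remainder.

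**Figure D3:**
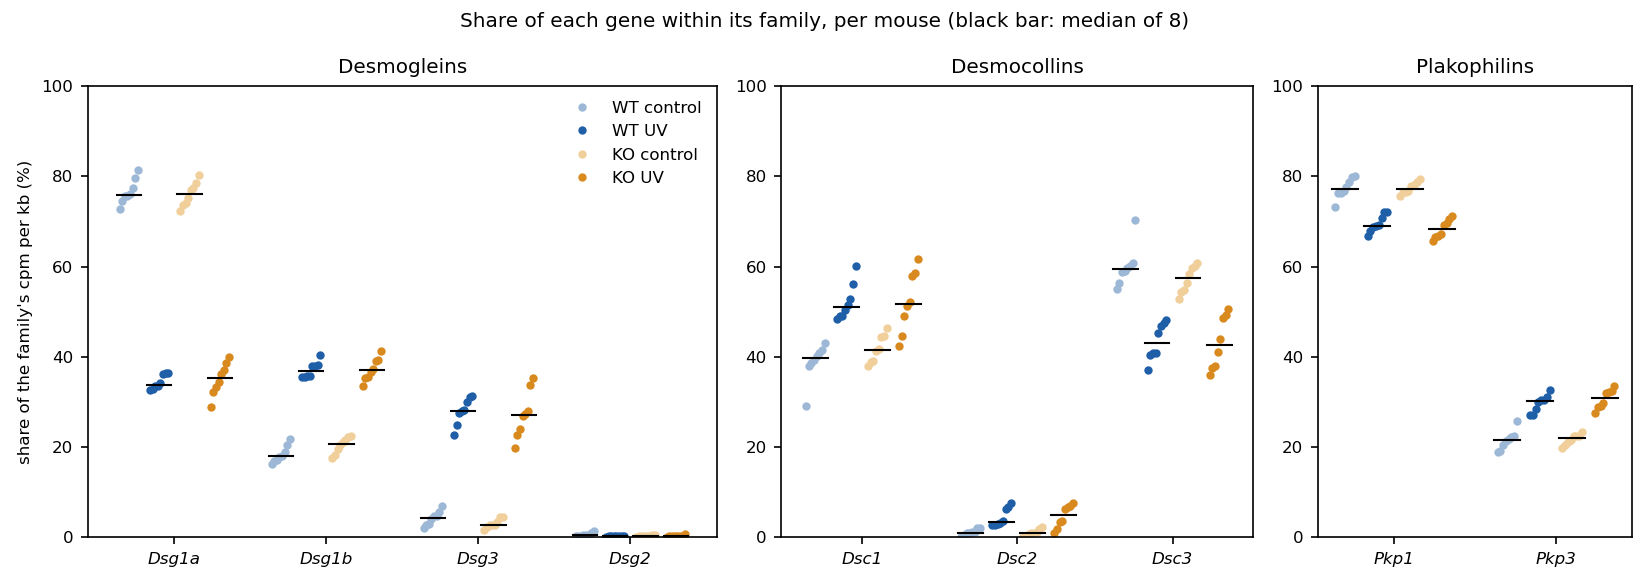
Share of the summed cpm per kb of exon held by each desmoglein, desmocollin and plakophilin in each mouse, in percent, by genotype and treatment; the black bar is the median of 8. After UV the median share of Dsg1a in WT mice went from 75.9 to 33.9% while Dsg1b reached 36.9% and Dsg3 28.1%, and Dsc1 passed Dsc3. Shares of Dsg1a and Dsg1b are low estimates, as reads from their shared sequence were not counted.

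The keratins that define the layers were measured beside the cadherins. The upper-layer keratins Krt1 and Krt10 fell in WT mice (log2 fold changes -2.41 and -2.17, edgeR adjusted P values 3.01e-10 and 4.50e-10) and in KO mice (-2.81 and -2.33). The basal keratin Krt14 rose in both (1.70 and 2.00), whereas its partner Krt5 fell in WT mice (log2 fold change -0.50 ± 0.18 (SE), edgeR adjusted P value 0.0157) and had a log2 fold change of 0.25 in KO mice that was not called. The upper-layer Dsg1a changed in the direction of Krt1 and Krt10, whereas Dsg1b and Dsc1 changed in the other direction. The basal keratins went apart in WT mice, and so did the lower-layer cadherins, with Dsg3 and Dsc2 in the direction of Krt14 and Dsg2 and Dsc3 in that of Krt5. In bulk epidermis fewer cells of a type and less RNA per cell cannot be told apart. The summed level of 7 upper-layer markers was 68037 to 78401 cpm in WT controls and 14953 to 28220.1 cpm after UV, and that of 6 basal markers 7117 to 16276 cpm and 17028 to 29500.4 cpm. Of the basal markers 3 rose and 2 fell in WT mice and 4 rose and 1 fell in KO mice, and of the upper-layer markers 6 and 7 fell. Krt14 made up a large part of the basal sum, at 2918 to 7691 cpm in WT controls and 13428 to 22836 cpm after UV. In KO mice the upper-layer sum was 62539 to 108363 cpm in controls and 9362 to 33433 cpm after UV, and the basal sum 5321 to 11850.0 cpm and 16588 to 28941 cpm. The part of these shifts in the members' changes was not tested.

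Markers of other cell types also moved with UV. The 4 Langerhans cell markers summed to 375 to 802 cpm in WT controls and 181 to 277 cpm after UV, and the 5 T cell markers to 105 to 198 cpm and 17.2 to 51.1 cpm. In KO mice the Langerhans cell sum was 236 to 743 cpm and 183 to 655 cpm and the T cell sum 92.8 to 168 cpm and 28.4 to 75.6 cpm. The 6 fibroblast markers summed to at most 92.2 cpm in every mouse but 1 and to 1982 cpm in the UV-exposed KO female 54F. In WT mice the fibroblast sum was 12.6 to 71.9 cpm in controls and 1.73 to 8.44 cpm after UV, without overlap, and 3 of its 6 markers fell. The 4 sebocyte markers summed to 13.0 to 61.6 cpm in KO controls and 46.6 to 379 cpm after UV, with 2 higher, and to 14.5 to 92.0 cpm and 14.0 to 131 cpm in WT mice, with 1 higher and 1 lower. All 3 endothelial markers rose in WT and 2 in KO mice, to sums of at most 6.86 and 20.8 cpm. Of 4 neutrophil markers tested, 2 rose in WT mice, and 3 rose and 1 fell in KO mice, where the sum was 37.6 to 84.5 cpm in controls and 53.3 to 116 cpm after UV. Melanocyte markers gave 1 of 4 higher in each genotype, and hair shaft and inner root sheath markers gave no call. The 5 skeletal muscle markers, none of them called, varied from 3.71 to 2567 cpm across all arms. Without mouse 54F all 10 members were still called in KO mice, with Dsg3 at 2.78 and Dsg1a at -1.46. The part of the other cell types in the results was otherwise not tested.

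The genotypes were compared for the size of the UV response, and 0 of the 10 members were called in the genotype-by-UV interaction, against 0.765% of all genes tested (0.515% with a higher and 0.251% with a lower UV change in KO mice). At an unadjusted P value under 0.05 there were 2 of the 10 members, Pkp1 and Dsg1b, beside 3042 of all 15546 genes, a similar share. limma-trend and DESeq2 called 0 members as well. The UV change of Pkp1 was lower in KO than in WT mice by -0.24 on the log2 scale (95% interval -0.44 to -0.04, edgeR adjusted P value 0.184). For Dsg1b the difference was -0.40 (95% interval -0.79 to -0.02, edgeR adjusted P value 0.233). The interaction estimate was below 0 for 8 of the 10 members, with a median of -0.19 beside 0.04 over all genes. The exceptions were Dsg2 at 0.53 (95% interval -0.05 to 1.11) and Dsg3 at 0.08 (-0.32 to 0.47). The share of all genes below 0 was not counted. Dsc2, 1 of the 8, turned positive in 15 of the 32 fits without 1 mouse. Intervals this wide do not show equal responses, and for Dsc2 the interval ran from -1.33 to 1.31. Signs of members that vary together from mouse to mouse, given below, are not independent.

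Direct comparison of KO with WT mice also gave 0 members called without UV, against 0.206% of all genes (0.148% higher and 0.0579% lower), and 0 after UV, against 3.31% (2.69% higher and 0.618% lower). Without UV, 2 of the 10 members had an unadjusted P value under 0.05, as had 1324 of all 15546 genes. The 2 members were Dsg2 (log2 difference -0.44, 95% interval -0.85 to -0.03, edgeR adjusted P value 0.550) and Dsg3 (-0.29, 95% interval -0.57 to -0.01, edgeR adjusted P value 0.567). After UV no member had an unadjusted P value under 0.05, while 3121 of all 15546 genes did. After UV 9 of the 10 members had estimates below 0, all between -0.21 for Dsg3 and -0.04 for Pkp3, and Dsg2 stood at 0.09. The median of the members was -0.14, beside 0.02 over all genes, and the share of all genes below 0 was not counted. Here too the signs of members that vary together are not independent. The ranges of KO and WT mice overlapped for every member in both states, as they did for nearly all genes, of which 0.103% were apart without UV (0.0708% higher and 0.0322% lower in KO mice) and 0.187% after UV (0.0579% higher and 0.129% lower).

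The sexes, whose response to UV was the question of the study, were compared within each genotype for the size of their UV change. Their levels within an arm were not tested. In KO controls females lay below males without overlap for Dsp, at 8264 to 11326 against 11331 to 13013 cpm. The same held for Pkp1 (3380 to 4348 against 4400 to 4846 cpm) and Dsc1 (974 to 1309 against 1412 to 1742 cpm). Among UV-exposed KO mice it held for Dsg1a (748 to 945 against 999 to 1679 cpm). In all other cases the sexes overlapped. The share of all genes so apart was not counted. The sex-by-UV interaction called 0 members in WT and 0 in KO mice, and 0 of all 15546 genes in either genotype, with 419 and 1482 genes at an unadjusted P value under 0.05. No member was among these in either genotype. DESeq2 and limma-trend also called 0 members. Taken sex by sex, 5 members rose and 3 fell in WT males and in WT females (Dsc3 was called in neither), against 29.8% and 31.1% of all genes in males and 30.1% and 31.1% in females. In KO males 4 rose and 5 fell, against 30.9% and 30.9%, and in KO females 3 rose and 4 fell, against 34% and 26.7%. The calls missing in KO females were Dsg1b (log2 fold change 0.41 ± 0.19 (SE), edgeR adjusted P value 0.0593), Dsc1 and Pkp1, and in KO males Dsc1 (log2 fold change 0.43 ± 0.21 (SE), edgeR adjusted P value 0.0784). For Dsg3 the UV change in females minus that in males was -0.30 in WT mice (95% interval -0.87 to 0.26) and -0.10 in KO mice (-0.66 to 0.47).

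Mouse-to-mouse variation within groups linked the members in another way than their UV changes did. Deviations from the 8 group means in log2 cpm were correlated over the 32 mice, all pairs sharing the same libraries and the same scaling. A set of 6 members, Dsg1a, Dsg1b, Dsc1, Dsp, Pkp1 and Dsc3, varied together, with Pearson r between 0.71 and 0.93 for their 15 pairs. The set was picked from these same correlations, and the spread of r over all pairs of genes was not computed. Dsc3 was closer to Scaf11 (r = 0.90), which is not a member, than to any member. The part of RNA quality in this shared variation was not tested. Dsg1a and Dsg1b, which moved in opposite directions after UV, were in this set with r = 0.85 (Spearman rho 0.80), and 0.76 without the 2 mice farthest from the median, 43M and 59M. Dsg1a and Dsc1 had r = 0.93 (rho 0.93), and 0.88 without the same mice. Dsg2 and Dsg3, which also moved in opposite directions after UV, had r = 0.69 (rho 0.64), and Dsg2 and Dsg1a had r = -0.55 (rho -0.50), which was -0.41 without 43M and 59M. Dsc2 was correlated with none of the others beyond r = -0.29. Mouse 43M was low in Dsg1a, Dsg1b, Dsc1 and Dsp and had the highest Dsg2 of all mice, 49.7 cpm.

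**Figure D4:**
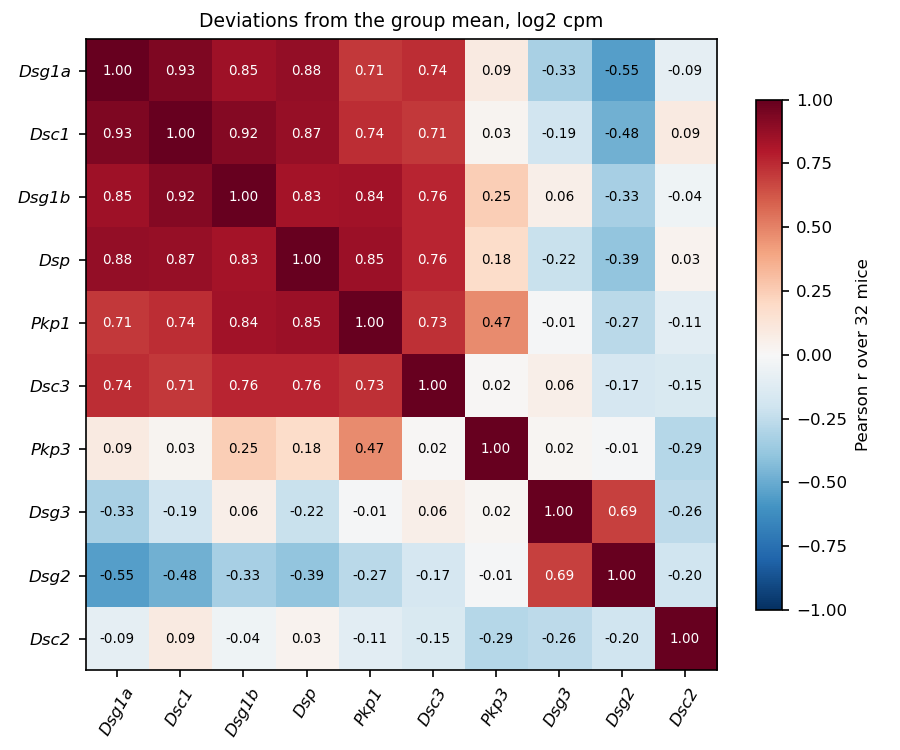
Pearson correlation over 32 mice between the members' deviations from their group means in log2 cpm, from -1 (blue) to 1 (red). Dsg1a, Dsc1, Dsg1b, Dsp, Pkp1 and Dsc3 form a block with r of 0.71 to 0.93, Dsg3 and Dsg2 pair at 0.69, and Dsc2 and Pkp3 stand apart.

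The same measure was used to find the genes most like Dsg3, Dsc1 and Dsp among the 10122 genes with a mean of at least 5 cpm. For Dsg3 these were Bnc1 (r = 0.92), which encodes the basal keratinocyte zinc-finger protein basonuclin, Smo (0.89), the transducer of Hedgehog signals, and Cdh3 (0.88), P-cadherin of the basal layer. For Dsc1 they were Pof1b (0.95), an actin-binding protein of junctions, Dsg1a (0.93) and Abca12 (0.92), the lipid transporter of lamellar granules. For Dsp they were Il22ra1 (0.93), an interleukin-22 receptor subunit, Tiam1 (0.93), an activator of Rac, and Tjp1 (0.92), which encodes the tight junction protein ZO-1. These are likenesses over 32 mice and describe no shared control.

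Of 10 other genes of the structure, 1 rose and 4 fell in WT mice and 0 rose and 4 fell in KO mice (edgeR), beside 71% and 70.8% of all genes called. The plakin periplakin, Ppl, fell 2.05-fold in WT mice (log2 fold change -1.03 ± 0.11 (SE), edgeR adjusted P value 1.29e-09) and 2.56-fold in KO mice (log2 fold change -1.36 ± 0.11 (SE), edgeR adjusted P value 7.11e-12). Kazn, which encodes the periplakin-binding protein kazrin, fell 1.76-fold and 2.06-fold (edgeR adjusted P values 1.40e-09 and 1.19e-11). Perp, a p63 target required for desmosome assembly, fell 1.18-fold and 1.28-fold (edgeR adjusted P values 0.00176 and 1.98e-05). Cdsn, whose product corneodesmosin seals the junctions of the cornified layer, rose in WT mice (log2 fold change 0.34 ± 0.13 (SE), edgeR adjusted P value 0.0214) and stood at -0.01 in KO mice. Pkp4 fell in WT mice (log2 fold change -0.22 ± 0.09 (SE), edgeR adjusted P value 0.0304) and Dsg1c in KO mice (log2 fold change -0.99 ± 0.43 (SE), edgeR adjusted P value 0.0400), the latter at a median of 0.762 cpm in KO controls. Jup, which encodes plakoglobin, lay between 2248 and 3069 cpm (median 2640.2) in WT controls and between 2580.1 and 3274 cpm (median 2752) after UV and was not called in WT (0.09, edgeR adjusted P value 0.302) or KO mice (-0.17, edgeR adjusted P value 0.0574). Envoplakin, Evpl, had log2 fold changes of 0.12 and -0.17 and was not called either. Dsg4 and Pkp2, at medians under 1 cpm, had log2 fold changes of 0.79 and -0.97 in WT and 0.20 and -0.15 in KO mice and were not called. In WT females alone Pkp2 fell (log2 fold change -1.69 ± 0.73 (SE), edgeR adjusted P value 0.0484).

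Of 10 genes known to act on desmosomes, 5 rose and 3 fell in WT mice and 5 rose and 4 fell in KO mice, again beside 71% and 70.8% of all genes called. Grhl1 and Grhl3, which encode Grainyhead factors and of which Grhl1 is known to act on Dsg1, went apart: Grhl3 rose (log2 fold change 0.87 ± 0.11 (SE), edgeR adjusted P value 7.86e-08 in WT mice, log2 fold change 0.40 ± 0.11 (SE), edgeR adjusted P value 0.00219 in KO mice), and Grhl1 fell (log2 fold change -0.29 ± 0.07 (SE), edgeR adjusted P value 0.000981 in WT mice, log2 fold change -0.51 ± 0.07 (SE), edgeR adjusted P value 5.39e-07 in KO mice). Klf4, a factor of terminal differentiation, rose by a log2 fold change of 0.34 in WT and 0.18 in KO mice, and Snai2, the repressor Slug, by 0.65 and 0.81. Prkca, a kinase that loosens desmosomal adhesion, fell 2.36-fold in WT mice (log2 fold change -1.24 ± 0.25 (SE), edgeR adjusted P value 6.59e-05) and 1.69-fold in KO mice (log2 fold change -0.76 ± 0.24 (SE), edgeR adjusted P value 0.00716). Its level was low, at medians of 6.70 cpm in WT controls and 2.75 cpm after UV, and 6.30 and 4.75 cpm in KO mice. The sheddase gene Adam17 fell by 0.21 and 0.39 on the log2 scale, and Adam10 fell in KO mice (-0.23, edgeR adjusted P value 0.0374) and stood at -0.10 in WT mice, where it was not called. Cast, the calpain inhibitor, rose in both (0.51 and 0.23), Egfr was called in WT mice (log2 fold change 0.33 ± 0.09 (SE), edgeR adjusted P value 0.00132) and not in KO mice (0.04), and Trp63 in KO mice (log2 fold change 0.23 ± 0.09 (SE), edgeR adjusted P value 0.0245) and not in WT mice (0.18). None of the 20 genes was called in the genotype-by-UV interaction.

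**Figure D5:**
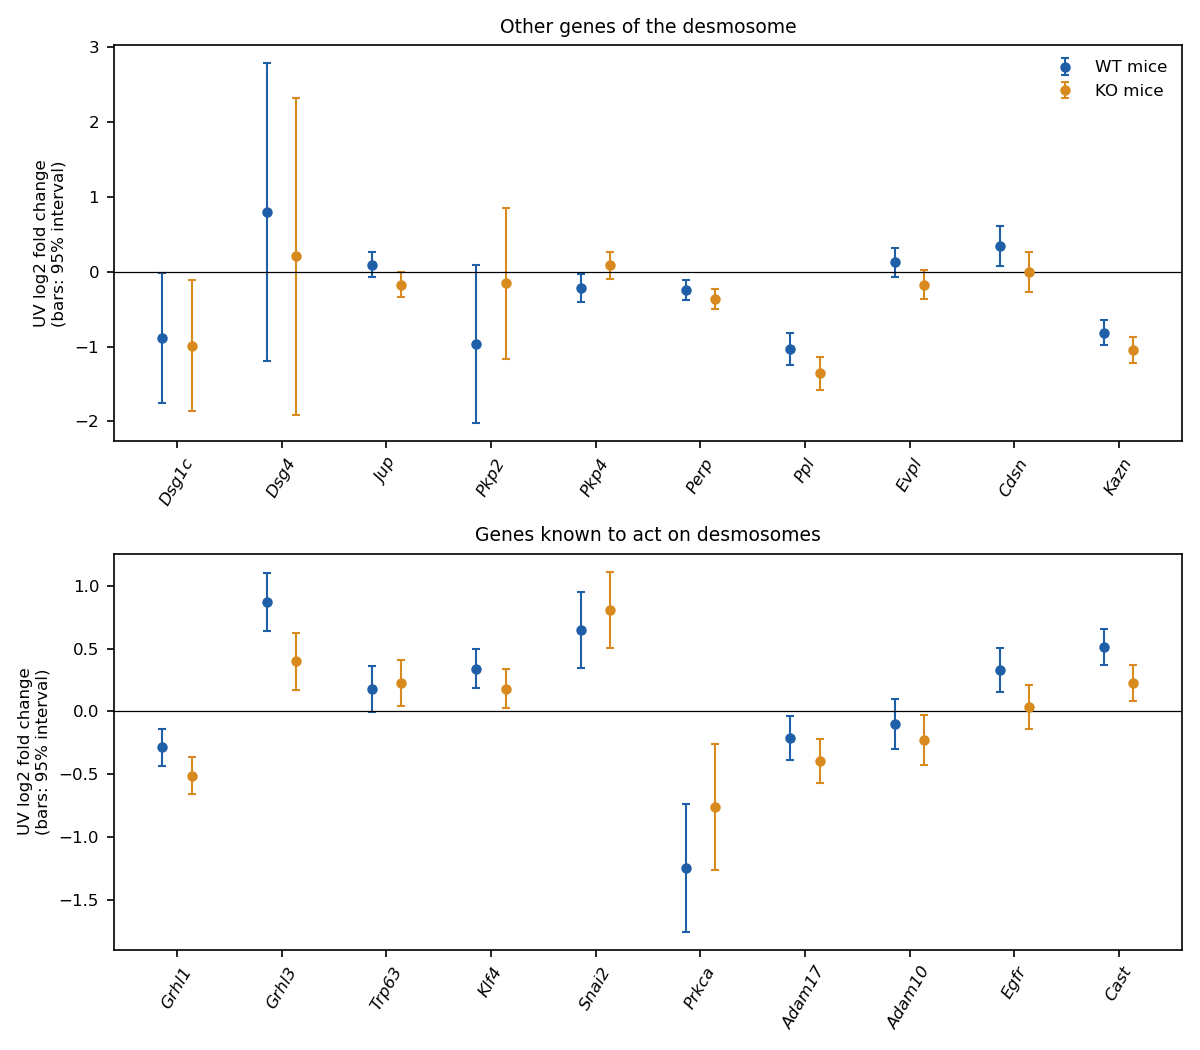
UV-induced log2 fold change, with 95% intervals, in WT (blue) and KO (orange) mice for 10 other genes of the desmosome (top) and 10 genes known to act on desmosomes (bottom). Ppl and Kazn lie clearly below 0 in both genotypes, while Jup and Evpl lie near 0 and Dsg4 and Pkp2 have wide intervals.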

How the data were processed

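Dorsal epidermis of 32 mice was profiled by single-read RNA sequencing of stranded libraries. The authors deposited 1 table of raw read counts per mouse. According to the submitters' processing notes, reads were handled with bcl2fastq, cutadapt 1.8, STAR 2.5.3a and HTSeq 0.9.1 on GRCm38; the strand setting of the counting is not given in the sources used here. No-feature reads were 6.80 to 9.75% of the gene, no-feature and ambiguous reads together. Not-unique reads were 31.4 to 38.8% of that total with the not-unique reads added. These and the other summary lines of the counts entered neither the library sizes nor the tests. Reads mapping to several places are therefore absent from the counts, which bears on near-identical genes.

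Genes that reached 1 cpm in any of the mice entered the fit. They were scaled by TMM and tested in R 4.3.3 with the quasi-likelihood test of edgeR 4.0.16 on 8 group means (genotype, treatment and sex), with P values adjusted by Benjamini-Hochberg over all 15546 genes. The script was tested on simulated counts. DESeq2 1.42.0, limma-trend (limma 3.58.1), RLE size factors, other filters, the genotypes fitted apart, each sex, each mouse left out and the Dsg1 copies summed were alternatives. Reporting the median of all genes under each scaling, and naming mouse 54F, were chosen after seeing the data. Levels per kb used the union of GENCODE exons. Named genes were all members, every gene of the lists of other desmosome genes and of genes acting on desmosomes, Ppard, 4 layer keratins and the 3 genes most correlated with Dsg3, Dsc1 and Dsp. The members and lists were chosen with earlier results of these data known.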

Additional observations from a re-analysis of the deposited data

Results flagged for a closer look

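Among the 80 combinations of a member and a group of 4 mice, 10 held a mouse whose gap to the nearest other mouse was a larger share of the group's range than Dixon's 95% critical value for 4 samples. Chance gives this in about 1 of 20 groups. The desmocollins gave 5 of them. Dsc1 stood at 604 cpm in WT control male 43M, below 1376 to 1485 cpm in the other 3. Dsc2 reached 63.2 cpm in WT control female 63F, against 30.4 to 33.0 cpm, and 276 cpm in UV-exposed WT female 77F, against 99.0 to 123 cpm. Dsc3 reached 2053 cpm in WT control female 71F, against 1740 to 1793 cpm, and 1616 cpm in UV-exposed KO female 66F, against 1392 to 1428 cpm.

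The same female 66F had 24.6 cpm of Dsg2, against 12.1 to 13.6 cpm in the other UV-exposed KO females. UV-exposed KO male 61M had 14.8 cpm of Dsg2, against 9.90 to 10.0 cpm. Pkp1 reached 4846 cpm in KO control male 67M, against 4400 to 4447 cpm, and was low in UV-exposed WT male 38M at 3457 cpm, against 3997 to 4064 cpm. Pkp3 reached 1254 cpm in UV-exposed WT male 57M, against 1082 to 1097 cpm. No explanation of these mice was tested. No member's UV change differed between the genotypes or the sexes by the test of the difference.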

How the results depend on the processing

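The counts of members called stayed within 1.5 times of those reported under every setting tried: another scaling, DESeq2, limma-trend, other low-count filters, the genotypes fitted apart and each mouse left out, where 8 to 9 members were called for UV in WT mice, 9 to 10 in KO mice and 0 in the genotype and sex comparisons. Outside the fits without 1 mouse, 480 values were kept and 27 were not, and the cause was not tested except where named. A log2 fold change was kept if its direction and its side of the threshold stayed the same. A count of called genes was kept if it stayed within 1.5 times. The lost calls were those of Dsc1 in KO and Dsc3 in WT mice, given above, and, in KO females alone, Dsg1b (0.41) and Pkp1 (-0.18). Signs turned only for values near 0 that were not called, except for Dsg1b, whose UV change became that of the whole family when the Dsg1 copies were summed (-0.68 in WT, -0.94 in KO, and 0.0425 for sex-by-UV in WT). For Pkp1 in WT mice the value was 0.0202 with RLE size factors and with DESeq2, 0.00205 with no filter and 0.0139 in females. For sex-by-UV in KO mice, Dsc2 was -0.0403 with RLE, -0.0400 with DESeq2, -0.0920 with filterByExpr, -0.0695 with no filter and -0.00844 with the genotypes apart, Dsg2 was -9.63e-05 with limma-trend and -0.0182 with filterByExpr, and Dsp was -0.00938 with filterByExpr.

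Without 1 mouse at a time, 21 of 81 results changed sign in at least 1 of 32 fits, all of them not called, and 2 lost their call (above). In the sex-by-UV difference of WT mice the lowest and highest values were Dsc1 -0.31 to 0.0248, Dsc3 -0.044 to 0.15, Dsg1a -0.0558 to 0.23, Dsg1b -0.16 to 0.14, Dsg2 -0.44 to 0.15, Dsp -0.0887 to 0.12 and Pkp1 -0.0145 to 0.10. In that of KO mice they were Dsc2 -0.33 to 0.45, Dsc3 -0.0567 to 0.24, Dsg2 -0.25 to 0.23, Dsg3 -0.31 to 0.00116, Dsp -0.0506 to 0.21, Pkp1 -0.0303 to 0.22 and Pkp3 -0.21 to 0.0648. For the genotype-by-UV difference they were Dsc2 -0.38 to 0.22 and Dsg3 -0.0376 to 0.18. For KO against WT after UV they were Dsc2 -0.37 to 0.0628 and Dsg2 -0.0686 to 0.14. For KO against WT without UV they were Dsc2 -0.37 to 0.22 and Dsc3 -0.0133 to 0.0889. For UV in WT mice they were Pkp1 -0.0379 to 0.0481. Dsg2 and Dsc2 had the fewest reads of the members, down to 239 and 204 in a mouse, and the largest SD of log2 cpm within groups, 0.41 and 1.04. No paired analysis was possible because the tags in the sample titles name mice and are not shared replicate numbers. Copies of Dsg1 that share sequence, an unknown strand setting and the mixture of cell types limit what a level in bulk epidermis says of a single gene or layer.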
